A study of Rattus norvegicus with 16 samples.

Results

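Lysosomal gene expression was examined in cells sorted from cultures of rat olfactory mucosa, the lining of the nasal cavity that carries the sense of smell. The genes were 34 named lysosomal components, a fixed list of symbols that was chosen with earlier results of these data known. Their shares are therefore set beside those of all genes only as a description. Of the 34, 8 were cathepsins and related peptidases, 6 membrane proteins and 7 glycosidases. Another 6 were lipid-handling proteins, 4 other hydrolases or soluble proteins and 3 proton pump subunits. All 34 were on the array, by 41 probes, and all 34 passed the filter on dim signals, as did 20571 genes in all. Male Fischer rats were the source. There were 4 populations with 4 biological replicates each, 1 array per replicate. TRKA-TGF cells were TRKA cells conditioned with transforming growth factor alpha (TGF-a). TRKA, CD90 and p75 cells were grown by a common culture protocol without that step. Each population was named for the surface protein it was sorted by; CD90 is encoded by Thy1, and p75 is the neurotrophin receptor encoded by Ngfr. All 4 populations were sorted by flow cytometry to a stated purity of 93 to 97%, and their mRNA was amplified by PCR before labelling. The labels do not say whether replicates came from separate animals, so p-values measure only the spread between these samples.

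Lysosomes are acidic vesicles in which proteins, sugars and lipids taken up by the cell or drawn from its own cytoplasm are broken down. A proton pump, the V-ATPase, keeps their interior acidic, soluble hydrolases do the digestion, and heavily glycosylated membrane proteins line the wall and carry ions and products across it. The transcription factors TFEB, TFE3 and MITF are known to bind a palindromic element, TCACGTGA or its core CACGTG, in promoters of many lysosomal genes. Cells that engulf debris, such as macrophages and osteoclasts, are known for abundant lysosomes.

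Promoter sequence was matched for 28 of the 34 genes in the RefSeq table of the GRCr8 assembly, and the 250 bases before the annotated start were searched. CACGTG, a palindrome that reads alike on both strands, was found before Cd63, Ctsd, Gaa, Glb1, Lamp1 and Mcoln1, which is 6 of 28 promoters (21.4%). It was found before 9 of 57 other lysosomal genes of the lists used below (15.8%) and before 1585 of all 27457 promoters in the table (5.77%). The longer palindrome TCACGTGA, which contains CACGTG, was found before Ctsd and Lamp1, 2 of 28 promoters (7.14%), and before 204 of 27457 in all (0.743%). The sequences are shown because they are the DNA letters that the known lysosomal transcription factors read. A match is a description of these letters and was not tested as a binding site. The Lamp1 run (chr16:83075084-83075258, minus strand) covered bases 195 to 21 before the start and held CACGTG 5 times, 2 of them within TCACGTGA. The Ctsd run (chr1:206968822-206968991, minus strand) covered bases 170 to 1 before the start and held CACGTG 2 times, once within TCACGTGA. The Cd63 (chr7:1921932-1921981, plus strand), Gaa (chr10:105028266-105028315, plus strand), Glb1 (chr8:122963596-122963645, plus strand) and Mcoln1 (chr12:6358214-6358257, plus strand) runs each surround a single match. Capitals mark the motif.
Lamp1: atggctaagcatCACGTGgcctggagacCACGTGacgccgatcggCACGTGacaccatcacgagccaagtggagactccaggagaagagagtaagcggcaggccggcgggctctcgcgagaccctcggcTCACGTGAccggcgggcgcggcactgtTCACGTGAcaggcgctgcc
Ctsd: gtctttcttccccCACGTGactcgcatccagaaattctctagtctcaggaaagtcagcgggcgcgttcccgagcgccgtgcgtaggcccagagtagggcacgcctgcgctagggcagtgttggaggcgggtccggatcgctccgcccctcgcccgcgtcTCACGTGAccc
Cd63: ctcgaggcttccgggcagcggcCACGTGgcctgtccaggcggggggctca
Gaa: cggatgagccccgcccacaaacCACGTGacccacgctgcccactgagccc
Glb1: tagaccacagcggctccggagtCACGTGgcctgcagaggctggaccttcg
Mcoln1: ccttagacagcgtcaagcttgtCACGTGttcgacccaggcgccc

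Levels below are on a log2 scale, as background-subtracted signal over each array's own 75th percentile, so that 0 stands for that percentile and each step of 1 is a doubling of signal. A difference is written with its first-named population minus the other and carries the standard error (SE) of a limma model over all 20571 genes. Calls required a Benjamini-Hochberg adjusted p below 0.05 across those genes. The TRKA arrays were dimmer than the rest: 51.4 to 57.5% of their spots were well above background, against 66.4 to 72.4% on the arrays of the other populations. Their replicates also spread more, with a median SD per gene of 1.08, against 0.54 in TRKA-TGF, 0.68 in CD90 and 0.65 in p75. For the 34 lysosomal genes the median SD was 0.25 in TRKA, against 0.13 in TRKA-TGF, 0.35 in CD90 and 0.36 in p75. TRKA and p75 arrays shared slide 1 and TRKA-TGF and CD90 arrays shared slide 2, so slide and population cannot be told apart in the other 4 comparisons, TRKA-TGF with TRKA included. Within a slide each population filled its own row of arrays, and row and population cannot be told apart either.

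The CD90 and p75 sort labels were checked against their genes. Thy1 stood at 3.02 to 3.67 in CD90 cells and at -1.21 or lower in the other populations, and Ngfr stood at 2.68 to 3.18 in p75 cells. Ngfr was also well above background on all 4 TRKA-TGF arrays (-1.49 to 0.09) but on none of the TRKA arrays. A list of 19 macrophage markers (Cd14, Cd163, Csf1r, Mrc1, Msr1, Itgam, C1qa and others) was also followed. Its mean level per array was 2.86 to 3.02 in TRKA-TGF and 3.93 to 4.25 in TRKA, against -1.39 to -0.62 in CD90 and -3.42 to -2.78 in p75. Like most lysosomal genes, these markers were thus higher in the TRKA populations than in CD90 and p75. Between CD90 and p75 only the medians ran apart. The median CD90 minus p75 difference was 2.33 for the macrophage markers and -0.46 for the lysosomal genes. Of the 34, 4 were called higher in CD90, Cd68, Ctss and Lgmn among them, 6 lower and 24 neither way. Of all genes, 3.73% were called higher and 3.46% lower. The 8 cathepsins and related peptidases had a median of 0.54, with 3 called higher and 0 lower. In TRKA cells 19 of the 19 markers were well above background on all 4 arrays and in TRKA-TGF cells 18, with Cd163 on no TRKA-TGF array. In CD90 cells 17 were on all 4 arrays, and in p75 cells 10, with Itgb2 on none. Of 11 glial markers, 11 were called lower in TRKA than in p75 cells, and their mean level per array was 3.33 to 3.45 in p75 and -3.15 or lower elsewhere. Of 12 fibroblast markers, 11 were called lower in TRKA-TGF than in CD90 cells and 11 in TRKA than in CD90 cells. Of 3 osteoclast markers tested, Oscar, an immunoglobulin-like receptor of osteoclasts and other myeloid cells, was called higher in TRKA-TGF and in TRKA than in CD90 and p75, by 2.39 to 4.61, and Dcstamp and Mmp9 were not called. The mean level of these osteoclast markers on an array lay between -4.31 and -0.97 in TRKA-TGF, -4.92 and 0.82 in TRKA, -5.96 and -3.23 in CD90 and -5.70 and -3.66 in p75. Calcr, also on that list, was not detected above background on any array. Of 3 neutrophil markers tested, none was called in any comparison; Mpo, Elane and Cxcr2 were not detected on any array, and S100a8 was detected in TRKA cells alone. The part of these markers, and of cell type mixture, in the lysosomal differences was not tested. Fewer cells of a type and less RNA per cell cannot be told apart in sorted bulk samples.

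Most lysosomal genes were higher in both TRKA populations than in CD90 or p75 cells. In TRKA-TGF against CD90 cells, 28 of the 34 were called higher, 1 lower (Ctsk) and 5 neither way, where 14.9% of all genes were called (7.87% higher and 7.04% lower). In TRKA against CD90 cells, 27 were called higher and 2 lower, against 33.8% of all genes (16% higher and 17.8% lower). In TRKA-TGF against p75 cells, 25 were called higher and 0 lower, against 15.4% of all genes (8.43% higher and 6.92% lower). In TRKA against p75 cells, 23 were called higher and 1 lower, against 34.8% of all genes (16.9% higher and 17.9% lower). The members' median difference was 2.41 for TRKA-TGF minus CD90, 1.95 for TRKA minus CD90, 1.53 for TRKA-TGF minus p75 and 1.85 for TRKA minus p75. The medians of all genes in these comparisons were 0.17, -0.23, 0.19 and -0.12. TRKA-TGF and TRKA are each compared with the same CD90 and p75 arrays here, so these 4 comparisons are not independent of each other. The splits for TRKA minus p75 and TRKA minus CD90 depended on the scaling. For TRKA minus p75, 17 members were called higher and 3 lower when arrays were scaled on probes bright on every array. The authors' deposited values gave the same split. Of all genes, the former scaling called 35.6%, with 20.7% of the calls higher, and the deposited values 41.8%, with 60.4% higher. For TRKA minus CD90, 21 were called higher with quantile normalization or the deposited values. With scaling on probes bright on every array 20 were, and 2 were called lower under each of these scalings. Of all genes in TRKA minus CD90, quantile normalization called 43.2% (61.3% of the calls higher) and the deposited values 41.5% (59.9% higher). Scaling on probes bright on every array called 39.8%, with 18.7% of the calls higher.

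**Figure D1:**
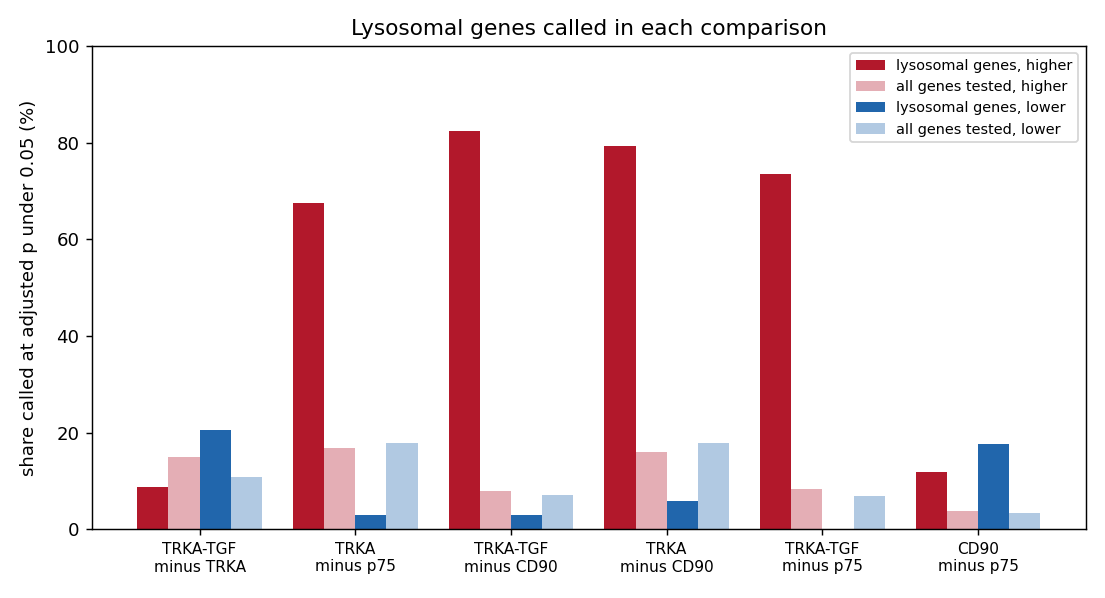
Share of genes called at an adjusted p under 0.05 (y axis, %) in each of the 6 comparisons of populations (x axis), as higher (red) or lower (blue) in the population named first; full colour is the 34 lysosomal genes and pale colour all 20571 genes. The lysosomal genes reached 67.6 to 82.4% higher in the 4 comparisons of a TRKA population with CD90 or p75, against 7.87 to 16.9% of all genes.

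Called higher in all 4 comparisons of a TRKA population with CD90 or p75 were 20 of the 34, against 2.88% of all genes: Ctsb, Ctsc, Ctsd, Ctss, Ctsz, Lgmn, Cd63, Cd68, Mcoln1, Gusb, Neu1, Lipa, Npc1, Npc2, Psap, Tpp1, Ppt1, Grn, Atp6v1b2 and Atp6ap1. For 13 of these (all but Cd63, Mcoln1, Gusb, Neu1, Lipa, Psap and Ppt1) each of the 4 calls held under every one of the 26 other settings tried. In 20 of the 34 genes, all 8 TRKA-TGF and TRKA arrays lay above all 8 CD90 and p75 arrays, against 4.01% of all genes. These were the genes just listed, with Lamp1 in place of Ppt1. Gaa, Glb1 and Smpd1 were not called in any of the 4 comparisons. The highest mean was in TRKA cells for 18 genes, in TRKA-TGF cells for 14, in CD90 cells for Ctsk and in p75 cells for Smpd1.

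**Figure D2:**
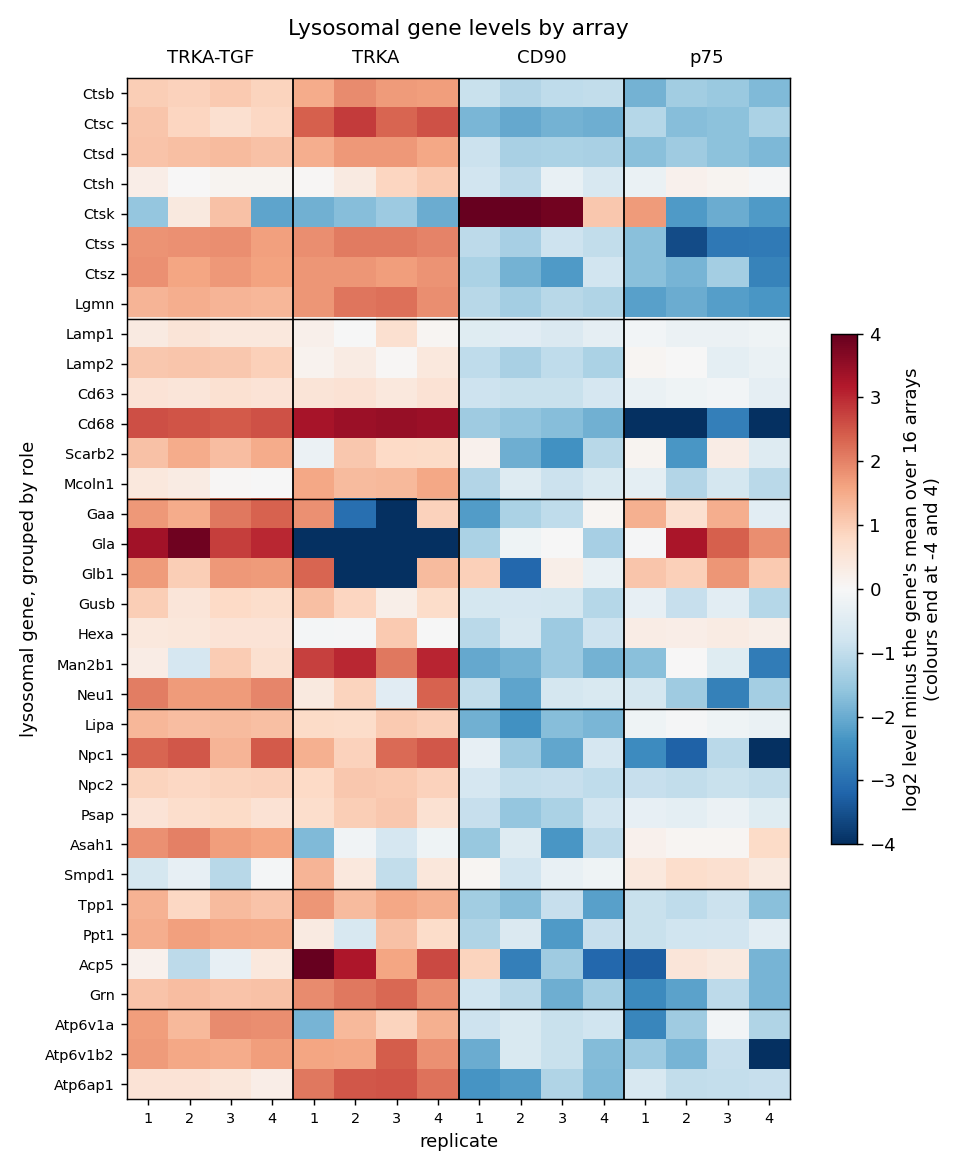
Level of each of the 34 lysosomal genes (rows, grouped by role) on each of the 16 arrays (columns, 4 replicates per population), as log2 level minus the gene's mean over the 16 arrays, with colours ending at -4 and 4. Most rows are red on the 8 TRKA-TGF and TRKA arrays and blue on the 8 CD90 and p75 arrays, while Ctsk is red in CD90 and Gla is dark blue on the 4 TRKA arrays.

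The cathepsins and legumain digest proteins inside the lysosome. Of these 8 peptidases, 6 were called higher and 1 lower in TRKA-TGF than in CD90, 7 higher and 1 lower in TRKA than in CD90, and 6 higher and 0 lower in each TRKA population than in p75. Their median difference was 2.47 for TRKA-TGF minus CD90 and 3.49 for TRKA minus p75. Ctsb, the cysteine protease cathepsin B, stood at 5.91, 5.84, 5.99 and 5.80 on the TRKA-TGF arrays, at 6.42, 6.83, 6.62 and 6.60 on the TRKA arrays, at 4.04, 3.74, 3.90 and 3.94 on the CD90 arrays and at 3.05, 3.54, 3.43 and 3.16 on the p75 arrays. Ctsd, the aspartic protease cathepsin D, stood at 5.58, 5.67, 5.72 and 5.64 in TRKA-TGF, 5.90, 6.20, 6.18 and 6.02 in TRKA, 3.61, 3.17, 3.20 and 3.16 in CD90 and 2.79, 3.04, 2.82 and 2.65 in p75. Both genes were high on every array of the 2 TRKA populations and neither overlapped between these and the other populations. Ctsb was higher in TRKA-TGF than in CD90 by 1.98 ± 0.20 (SE; adjusted p = 9.03e-06) and higher in TRKA than in p75 by 3.32 ± 0.20 (adjusted p = 2.42e-08). Ctsd was higher in TRKA-TGF than in CD90 by 2.37 ± 0.20 (adjusted p = 1.64e-06) and in TRKA than in p75 by 3.25 ± 0.20 (adjusted p = 2.82e-08).

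Ctss, cathepsin S, which trims the invariant chain of MHC class II molecules, stood at 5.61, 5.65, 5.66 and 5.44 in TRKA-TGF, 5.69, 5.90, 5.89 and 5.81 in TRKA, 2.77, 2.49, 2.99 and 2.83 in CD90 and 2.13, 0.23, 0.97 and 0.98 in p75. Ctsz, a carboxypeptidase, stood at 5.33, 5.09, 5.25 and 5.11 in TRKA-TGF, 5.28, 5.29, 5.18 and 5.32 in TRKA, 2.23, 1.62, 1.26 and 2.73 in CD90 and 1.84, 1.64, 2.14 and 0.84 in p75. Lgmn, the asparaginyl endopeptidase legumain, stood at 5.79, 5.88, 5.78 and 5.74 in TRKA-TGF, 6.17, 6.57, 6.62 and 6.28 in TRKA, 3.31, 3.06, 3.30 and 3.22 in CD90 and 2.26, 2.43, 2.23 and 2.08 in p75. In these genes too the TRKA populations were high throughout, and the p75 arrays were the lowest for Ctss and Lgmn. The difference of TRKA minus p75 was 4.75 ± 0.32 for Ctss, 3.65 ± 0.33 for Ctsz and 4.16 ± 0.19 for Lgmn (adjusted p = 9.37e-08, 1.75e-06 and 2.04e-09). The difference of TRKA-TGF minus CD90 was 2.82 ± 0.32 for Ctss, 3.24 ± 0.33 for Ctsz and 2.57 ± 0.19 for Lgmn (adjusted p = 3.07e-05, 1.21e-05 and 6.28e-07). Across the crossed pairs these 3 genes were higher in TRKA than in CD90 by 3.05, 3.31 and 3.19, and in TRKA-TGF than in p75 by 4.52, 3.58 and 3.55, each called.

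Ctsc, cathepsin C, the dipeptidyl peptidase that activates serine proteases of immune cells, stood at 2.51, 2.25, 2.03 and 2.22 in TRKA-TGF, 3.80, 4.20, 3.74 and 3.94 in TRKA, -0.44, -0.65, -0.49 and -0.55 in CD90 and 0.25, -0.32, -0.25 and 0.12 in p75. All 4 TRKA arrays lay above all TRKA-TGF arrays, which in turn lay above all CD90 and p75 arrays. Ctsc was higher in TRKA than in p75 by 3.97 ± 0.21 (adjusted p = 9.51e-09) and in TRKA-TGF than in CD90 by 2.79 ± 0.21 (adjusted p = 7.99e-07). Ctsh, cathepsin H, an aminopeptidase, was called higher in TRKA than in CD90 only, by 1.27 ± 0.26 (adjusted p = 0.00167); with quantile normalization this fell short (adjusted p = 0.24). Its arrays ranged from 3.42 to 3.66 in TRKA-TGF, 3.45 to 4.47 in TRKA and 3.13 to 3.58 in p75, and all 4 CD90 arrays, the lowest at 2.36, lay below these.

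Ctsk, cathepsin K, the collagen-degrading protease best known from osteoclasts, ran the other way. It stood at -7.72, -5.79, -5.00 and -8.30 in TRKA-TGF, -8.09, -7.88, -7.63 and -8.17 in TRKA, -1.75, -1.58, -2.31 and -5.09 in CD90 and -4.48, -8.43, -8.15 and -8.46 in p75. Detection above background covered the 4 CD90 arrays, TRKA-TGF replicate 3 and p75 replicate 1, and no TRKA array. Ctsk was at least 17.5-fold lower in TRKA than in CD90 cells on the reported signal (adjusted p = 0.00107). Over the reported and 4 other scalings that log2 difference ran from -6.10 to -1.88. It was called lower in each, but the smallest difference fell short of the bound. Ctsk was also lower in TRKA-TGF than in CD90 cells, with a difference of -4.02 ± 1.01 (adjusted p = 0.0145), although the lowest CD90 array lay below the highest TRKA-TGF array. The difference was -1.80 with normexp background correction (adjusted p = 0.00944), and it rests on a probe detected on 1 of 4 TRKA-TGF arrays. Without TRKA-TGF replicate 4 that call was lost, with a difference of -3.49 and an adjusted p of 0.0511.

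All 6 membrane proteins were called higher in TRKA-TGF than in CD90, in TRKA than in CD90 and in TRKA-TGF than in p75, with medians of 1.79, 1.66 and 1.12, and 3 of them in TRKA than in p75. Cd68, a heavily glycosylated protein of phagocyte lysosomes and itself a common macrophage marker, showed the largest differences of the 6. It stood at 3.16, 3.09, 3.04 and 3.13 in TRKA-TGF, 3.88, 4.00, 4.06 and 4.01 in TRKA, -0.85, -0.98, -1.13 and -1.34 in CD90 and -3.64, -4.65, -2.14 and -4.30 in p75. No array of a TRKA population overlapped with CD90 or p75, and all CD90 arrays lay above all p75 arrays. Cd68 was higher in TRKA than in p75 by 7.67 ± 0.41 (adjusted p = 9.49e-09) and in TRKA-TGF than in CD90 by 4.18 ± 0.41 (adjusted p = 8.25e-06). Mcoln1, the cation channel TRPML1, stood at 3.53, 3.43, 3.17 and 3.09 in TRKA-TGF, 4.66, 4.38, 4.42 and 4.64 in TRKA, 1.95, 2.60, 2.27 and 2.51 in CD90 and 2.73, 1.95, 2.39 and 2.04 in p75. The TRKA arrays were the highest of the series for this gene. Mcoln1 was higher in TRKA than in p75 by 2.24 ± 0.24 (adjusted p = 8.25e-06) and in TRKA-TGF than in CD90 by 0.97 ± 0.24 (adjusted p = 0.0138). The difference from CD90 had an adjusted p of 0.0619 when arrays were scaled on probes bright on every array.

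The other membrane proteins are widely expressed. Lamp1, a major protein of the lysosomal wall, stood at 5.92, 6.06, 5.97 and 5.98 in TRKA-TGF, 5.77, 5.55, 6.18 and 5.63 in TRKA, 5.07, 5.12, 4.98 and 5.19 in CD90 and 5.45, 5.31, 5.31 and 5.40 in p75. Lamp2, its relative, stood at 4.41, 4.45, 4.41 and 4.29 in TRKA-TGF, 3.46, 3.65, 3.36 and 3.73 in TRKA, 2.29, 2.01, 2.32 and 2.07 in CD90 and 3.40, 3.32, 2.92 and 3.05 in p75. Cd63, a tetraspanin of late endosomes and lysosomes, stood at 5.80, 5.74, 5.87 and 5.79 in TRKA-TGF, 5.76, 5.82, 5.66 and 5.82 in TRKA, 4.41, 4.36, 4.35 and 4.57 in CD90 and 4.98, 5.10, 5.14 and 4.89 in p75. All 3 were lowest on the CD90 arrays, and Lamp2 was highest on the TRKA-TGF arrays. The difference of TRKA-TGF minus CD90 was 0.89 ± 0.19 for Lamp1, 2.21 ± 0.20 for Lamp2 and 1.37 ± 0.18 for Cd63 (adjusted p = 0.00596, 3.45e-06 and 8.93e-05). For TRKA minus p75 only Cd63 of the 3 was called, at 0.74 ± 0.18 (adjusted p = 0.00496), and this sign depended on the scaling: it was -0.17 with quantile normalization, -0.043 when arrays were scaled on probes bright on every array and -0.19 in the authors' deposited values. Lamp1 was called higher in TRKA than in CD90 by 0.69 ± 0.19 (adjusted p = 0.0133) and took the opposite sign under the same 3 scalings (-0.24, -0.15 and -0.24). Lamp1 for TRKA-TGF minus p75 (0.61, adjusted p = 0.0484) was lost when any single CD90, p75 or TRKA-TGF array was left out (adjusted p = 0.0604 to 0.111). Scarb2, the receptor that carries glucocerebrosidase to lysosomes, was called in 3 of the 4 comparisons, not in TRKA minus p75 (1.21, adjusted p = 0.143). Its CD90 and p75 arrays ranged widely, from -1.95 to 0.64 in CD90 and from -1.85 to 0.77 in p75. Its call in TRKA minus CD90 (1.93) was lost without CD90 replicate 2 or 3 or TRKA replicate 2 (adjusted p = 0.0581 to 0.0789), and that in TRKA-TGF minus p75 (1.95) without any of 10 single arrays (adjusted p = 0.0507 to 0.125).

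The glycosidases, which remove sugars from glycoproteins, glycolipids and glycogen, varied in direction. Of 7, 5 were called higher in TRKA-TGF than in CD90, 4 higher and 1 lower in TRKA than in CD90, 2 higher in TRKA-TGF than in p75, and 3 higher and 1 lower in TRKA than in p75. Gla, alpha-galactosidase A, the enzyme lost in Fabry disease, stood at -0.16, 0.39, -0.76 and -0.51 in TRKA-TGF, -8.08, -7.89, -7.56 and -8.17 in TRKA, -4.77, -3.68, -3.53 and -4.85 in CD90 and -3.56, -0.24, -1.13 and -1.66 in p75. No TRKA array detected it above background, whereas all 12 arrays of the other populations did. Its probe lay on chromosome X, between 122048124 and 122049420 in rn4 on the minus strand, per the array files. Gla was at least 36.0-fold lower in TRKA than in p75 (adjusted p = 1.92e-06) and at least 6.09-fold lower in TRKA than in CD90 (adjusted p = 0.000204). These bounds set the mean of the brighter group against, on each dim array, whichever was higher of the probe's signal and the dimmest signal that array detected above background. They, and the other at-least values here, apply only to the signal as background-subtracted and scaled here. Over the reported and 4 other scalings the Gla difference of TRKA minus p75 ran from -7.06 to -2.54. That of TRKA minus CD90 ran from -4.56 to -0.75, so the smallest differences fell short of the bounds. In TRKA-TGF Gla was higher than in CD90 by 3.95 ± 0.58 (adjusted p = 0.000283), and its difference from p75, 1.39 ± 0.58, was not called (adjusted p = 0.14). With normexp background correction the difference of TRKA minus CD90 was no longer called, at an adjusted p of 0.237.

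Man2b1, the lysosomal alpha-mannosidase, stood at 0.28, -0.68, 0.99 and 0.62 in TRKA-TGF, 2.73, 3.00, 2.09 and 3.02 in TRKA, -2.05, -1.90, -1.46 and -1.90 in CD90 and -1.70, -0.0034, -0.49 and -2.82 in p75. The TRKA arrays were the highest, and the p75 arrays overlapped with both TRKA-TGF and CD90. Man2b1 was higher in TRKA than in p75 by 3.96 ± 0.54 (adjusted p = 6.67e-05) and in TRKA-TGF than in CD90 by 2.13 ± 0.54 (adjusted p = 0.015). Without TRKA-TGF replicate 3 the difference from CD90 was 1.90 and was not called (adjusted p = 0.0516). Hexa, the alpha subunit of beta-hexosaminidase, stood at 4.23, 4.28, 4.36 and 4.36 in TRKA-TGF, 3.75, 3.78, 4.88 and 3.80 in TRKA, 2.73, 3.18, 2.37 and 3.00 in CD90 and 4.12, 4.09, 4.14 and 4.05 in p75. Only the CD90 arrays were low. Hexa was higher in TRKA-TGF than in CD90 by 1.49 ± 0.27 (adjusted p = 0.00182) and did not pass the test in TRKA against p75 (-0.05 ± 0.27, adjusted p = 0.911). That difference depended on the scaling: Hexa was called lower in TRKA than in p75 with quantile normalization, with scaling on probes bright on every array and in the authors' deposited values, with differences down to -0.85. Neu1, the lysosomal sialidase, was called higher in all 4 comparisons, by 1.89 to 3.40, with its call in TRKA minus CD90 lost without CD90 replicate 2 (1.55, adjusted p = 0.0613). Gusb, beta-glucuronidase, was called higher in all 4 by 1.44 to 1.56 with its brightest probe. Both TRKA calls of that probe were lost with quantile normalization, with scaling on probes bright on every array and in the authors' deposited values, with differences down to 0.65 against p75 and 0.64 against CD90. With the mean over its 3 probes the TRKA differences took the opposite sign, -0.69 against p75 and -0.084 against CD90. Gaa, the acid alpha-glucosidase of glycogen, and Glb1, acid beta-galactosidase, scattered most on the TRKA arrays, from -5.53 to 2.35 and from -7.54 to 2.38, and neither was called in any comparison. On the TRKA-TGF arrays the same genes ranged from 2.00 to 2.87 and from 1.03 to 1.76.

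The lipid-handling proteins move cholesterol and split lipids and sphingolipids. Of 6, 5 were called higher in TRKA-TGF than in CD90, 5 in TRKA-TGF than in p75, 4 in TRKA than in CD90 and 4 in TRKA than in p75, and none lower. Npc1, the membrane protein of cholesterol export that is lost in Niemann-Pick disease type C, stood at 0.81, 0.95, -0.15 and 0.93 in TRKA-TGF, -0.10, -0.61, 0.74 and 0.95 in TRKA, -1.84, -2.95, -3.60 and -2.21 in CD90 and -4.02, -4.77, -2.62 and -5.90 in p75. Lipa, lysosomal acid lipase, stood at 4.53, 4.44, 4.48 and 4.40 in TRKA-TGF, 3.98, 3.95, 4.24 and 4.15 in TRKA, 1.30, 0.79, 1.49 and 1.38 in CD90 and 3.03, 3.17, 3.02 and 2.95 in p75. Npc1 was low in both CD90 and p75 cells, whereas for Lipa the CD90 arrays lay well below the p75 arrays. Npc1 was higher in TRKA than in p75 by 4.57 ± 0.63 (adjusted p = 7.35e-05) and in TRKA-TGF than in CD90 by 3.28 ± 0.63 (adjusted p = 0.00235). Lipa was higher in TRKA-TGF than in CD90 by 3.22 ± 0.20 (adjusted p = 1.46e-07) and in TRKA than in p75 by 1.04 ± 0.20 (adjusted p = 0.00129). Lipa was also higher in TRKA than in CD90 by 2.84 and in TRKA-TGF than in p75 by 1.42. The call of TRKA against p75 was lost with quantile normalization, with scaling on probes bright on every array or in the authors' deposited values (lowest difference 0.26, highest adjusted p = 0.344).

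Psap, the precursor of the saposins that help enzymes reach sphingolipids, stood at 5.99, 6.13, 6.20 and 6.02 in TRKA-TGF, 6.13, 6.42, 6.51 and 6.06 in TRKA, 4.52, 3.89, 4.16 and 4.67 in CD90 and 5.11, 5.06, 5.22 and 4.95 in p75. Asah1, acid ceramidase, stood at 2.48, 2.66, 2.33 and 2.23 in TRKA-TGF, -1.11, 0.52, -0.03 and 0.48 in TRKA, -0.87, 0.12, -1.69 and -0.40 in CD90 and 0.82, 0.74, 0.73 and 1.41 in p75. Psap was high in both TRKA populations, but Asah1 was high in TRKA-TGF alone, with the TRKA arrays overlapping CD90 and lying below all p75 arrays. Psap was higher in TRKA-TGF than in CD90 by 1.78 ± 0.22 (adjusted p = 6.88e-05). Asah1 was higher in TRKA-TGF than in CD90 by 3.13 ± 0.42 (adjusted p = 0.000121) and than in p75 by 1.50 ± 0.42 (adjusted p = 0.0242). The call against p75 was lost without p75 replicate 1, 2 or 3 or TRKA-TGF replicate 1 or 2 (adjusted p = 0.0566 to 0.0662). Npc2, the soluble partner of Npc1, was higher in all 4 comparisons, by 1.78 to 1.92. Smpd1, acid sphingomyelinase, was not called in any comparison, its differences from CD90 and p75 running from -1.10 to 0.60.

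The 4 other hydrolases or soluble proteins were all called higher in TRKA than in p75 and in TRKA than in CD90, and 3 of them in TRKA-TGF than in either. Grn, which encodes progranulin, stood at 5.57, 5.68, 5.57 and 5.60 in TRKA-TGF, 6.33, 6.54, 6.73 and 6.29 in TRKA, 3.66, 3.35, 2.50 and 3.08 in CD90 and 1.89, 2.30, 3.41 and 2.60 in p75. Acp5, tartrate-resistant acid phosphatase, an enzyme of osteoclasts and some macrophages, stood at -1.23, -2.44, -1.74 and -0.98 in TRKA-TGF, 2.63, 1.82, 0.18 and 1.23 in TRKA, -0.53, -4.16, -2.83 and -4.54 in CD90 and -4.72, -0.93, -1.03 and -3.28 in p75. Grn was high in both TRKA populations, and Acp5 in TRKA alone. Grn was higher in TRKA-TGF than in CD90 by 2.46 ± 0.32 (adjusted p = 0.000113). Acp5 was higher in TRKA than in p75 by 3.96 ± 0.96 (adjusted p = 0.0057) and did not pass the test in TRKA-TGF against CD90 (1.41 ± 0.96, adjusted p = 0.416). Tpp1, tripeptidyl peptidase 1, was called higher in all 4 comparisons, by 2.26 to 3.05. Ppt1, the thioesterase that removes fatty acids from proteins, stood at 4.23, 4.41, 4.33 and 4.29 in TRKA-TGF, 3.13, 2.13, 3.95 and 3.51 in TRKA, 1.55, 2.17, 0.50 and 1.85 in CD90 and 1.86, 1.98, 2.00 and 2.35 in p75. Its TRKA arrays overlapped with both CD90 and p75. Ppt1 was higher in TRKA-TGF than in CD90 by 2.79 ± 0.40 (adjusted p = 0.000216) and in TRKA than in p75 by 1.13 ± 0.40 (adjusted p = 0.04). The call against p75 was lost when any of 11 single arrays was left out (0.88 to 1.15, adjusted p = 0.0508 to 0.108). It was also lost with quantile normalization, with scaling on probes bright on every array (0.35, adjusted p = 0.517) and in the authors' deposited values, as was the call against CD90 (down to 0.82, adjusted p up to 0.117).

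The proton pump acidifies the lysosome. Its 3 subunits were all called higher in TRKA-TGF than in CD90, in TRKA-TGF than in p75 and in TRKA than in p75, and 2 of them in TRKA than in CD90. Atp6ap1, an accessory subunit, stood at 3.05, 3.08, 2.96 and 2.77 in TRKA-TGF, 4.62, 5.00, 5.03 and 4.70 in TRKA, 0.17, 0.28, 1.33 and 0.74 in CD90 and 1.89, 1.54, 1.57 and 1.59 in p75. Atp6v1b2, a subunit of the cytoplasmic part that binds ATP, stood at 3.57, 3.42, 3.37 and 3.54 in TRKA-TGF, 3.45, 3.43, 4.28 and 3.72 in TRKA, -0.12, 1.25, 0.97 and 0.14 in CD90 and 0.43, 0.01, 0.96 and -2.45 in p75. Atp6v1a, the catalytic subunit, stood at 3.00, 2.61, 3.21 and 3.18 in TRKA-TGF, -0.54, 2.64, 2.23 and 2.75 in TRKA, 0.50, 0.71, 0.43 and 0.55 in CD90 and -1.27, -0.10, 1.23 and 0.12 in p75. The populations of Atp6ap1 formed 4 levels without overlap, and in Atp6v1a TRKA replicate 1 stood far below the other TRKA arrays. Atp6v1b2 was higher in TRKA than in p75 by 3.98 ± 0.59 (adjusted p = 0.000135) and in TRKA-TGF than in CD90 by 2.91 ± 0.59 (adjusted p = 0.00345). Atp6ap1 was higher in TRKA-TGF than in CD90 by 2.33 ± 0.26 (adjusted p = 2.68e-05) and in TRKA than in p75 by 3.19 ± 0.26 (adjusted p = 6.21e-07). Atp6v1a was higher in TRKA-TGF than in CD90 by 2.45 ± 0.65 (adjusted p = 0.0196), a call lost without TRKA-TGF replicate 3 or 4 (2.38 and 2.39, adjusted p = 0.0511 and 0.052). Its call in TRKA minus p75, 1.78 ± 0.65 (adjusted p = 0.0479), was lost when any of 14 single arrays was left out (1.36 to 1.82, adjusted p = 0.0584 to 0.141). A dimmer Atp6v1a probe was called higher in TRKA-TGF than in CD90, by 5.36 ± 1.18 (adjusted p = 0.00633 over all probes). That probe was not called in TRKA minus p75 (-0.11) or in TRKA-TGF minus p75 (2.50).

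The effect of TGF-a conditioning was asked by comparing TRKA-TGF with TRKA cells. Gla, Asah1 and Lamp2 were called higher in TRKA-TGF, and Atp6ap1, Ctsc, Man2b1, Acp5, Mcoln1, Ctsb and Lgmn were called lower, while 24 of the 34 were not called. All genes gave 25.9% called, 15% higher and 10.9% lower, so that 3 of 34 higher (8.82%) and 7 of 34 lower (20.6%) stand beside those shares. The members' median difference was -0.08, against 0.35 for all genes. Gla was at least 94.1-fold higher in TRKA-TGF than in TRKA cells on the reported signal (adjusted p = 7.25e-07), with every TRKA array not well above background. Over the reported and 4 other scalings its log2 difference ran from 3.80 to 8.27. It was called higher in each, but the smallest difference fell short of that bound. Asah1 was higher by 2.46 ± 0.42 (adjusted p = 0.000705) and Lamp2 by 0.84 ± 0.20 (adjusted p = 0.00697), in each case with all 4 TRKA-TGF arrays above all 4 TRKA arrays. Atp6ap1 fell by 1.87 ± 0.26 (adjusted p = 0.000176), Ctsc by 1.67 ± 0.21 (adjusted p = 8.64e-05) and Man2b1 by 2.41 ± 0.54 (adjusted p = 0.00486), again without overlap. These 6 calls held in all 26 other settings. Of 19 macrophage markers, 1 was called higher and 5 lower in TRKA-TGF than in TRKA, with a median difference of -0.83. Of 11 glial markers, 3 were called higher and 0 lower, with a median difference of 1.71. The part of either list in these differences was not tested.

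**Figure D3:**
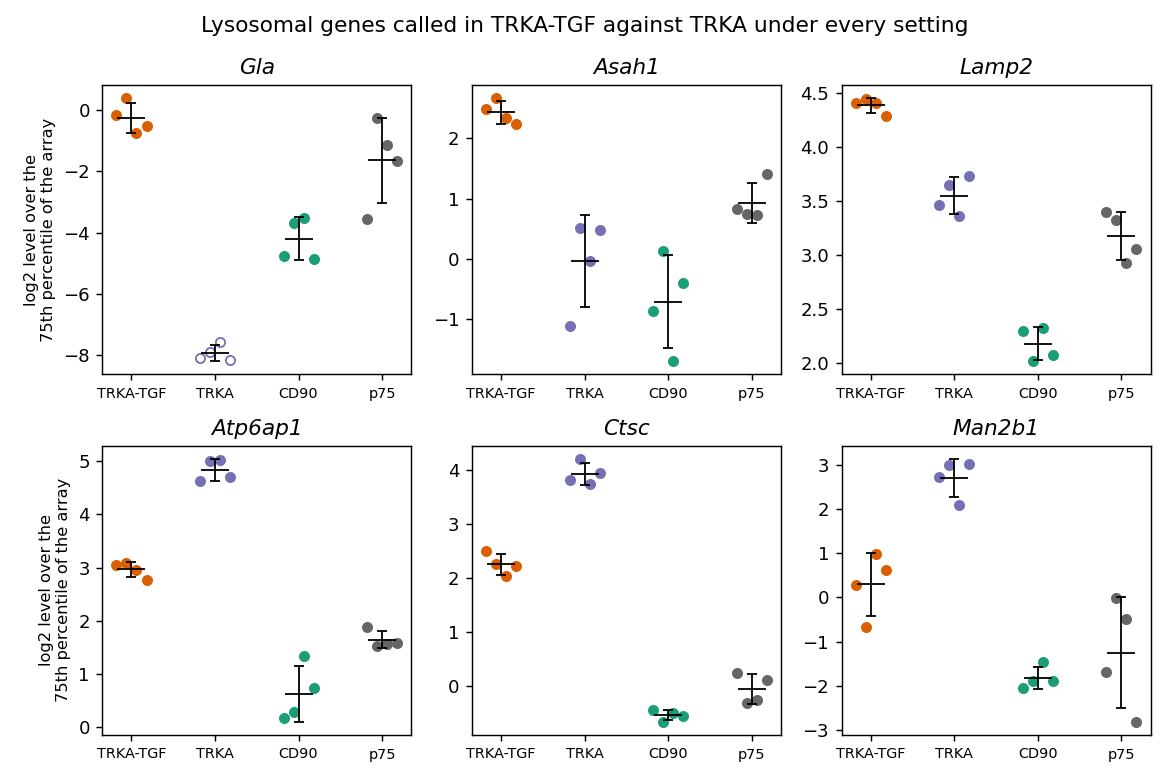
Log2 level over the 75th percentile of the array (y axis) for the 6 genes called in TRKA-TGF against TRKA under every setting, by population (x axis). Points are arrays, open where the probe was not well above background, and the horizontal mark and bar are the mean ± SD (n = 4); TRKA-TGF lies above TRKA for Gla, Asah1 and Lamp2 and below it for Atp6ap1, Ctsc and Man2b1.

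The other 4 calls of TRKA-TGF against TRKA depended on how arrays were scaled. Acp5 had a difference of -3.06 ± 0.96 (adjusted p = 0.0315), Mcoln1 of -1.22 ± 0.24 (adjusted p = 0.00218), Ctsb of -0.73 ± 0.20 (adjusted p = 0.0142) and Lgmn of -0.61 ± 0.19 (adjusted p = 0.0305). Ctsb and Mcoln1 were not called with quantile normalization, with scaling on probes bright on every array or in the authors' deposited values. Lgmn was 0.068 with quantile normalization and 0.051 in the authors' deposited values. The call of Acp5 was lost without TRKA replicate 1 or 2 or TRKA-TGF replicate 1, 2 or 3 (adjusted p = 0.0529 to 0.0836). That of Lgmn was lost without TRKA replicate 2 or 3 or any TRKA-TGF array (adjusted p = 0.052 to 0.0731). The split of calls turned with the scaling: 3 higher and 7 lower as reported, 4 and 7 with normexp, 11 and 4 with quantile normalization, 12 and 3 with scaling on probes bright on every array, and 11 and 4 in the authors' deposited values. Of all genes, 25.9% were called as reported and 23.8% with normexp, with 57.9% and 49% of these calls higher. Quantile normalization called 32.3% of all genes (39.2% of the calls higher) and the deposited values 31.5% (39.9% higher). Scaling on probes bright on every array called 30.4%, with 82.9% of the calls higher. The median of all genes in this comparison moved too, being 0.35 as reported, -0.01 with normexp, -0.15 with quantile normalization, 0.96 with scaling on probes bright on every array and -0.13 in the authors' deposited values. Hexa, Lipa, Lamp1, Cd63, Npc2, Gaa, Atp6v1a and Ppt1 were the genes called higher under those last 3 scalings besides Gla, Asah1 and Lamp2.

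**Figure D4:**
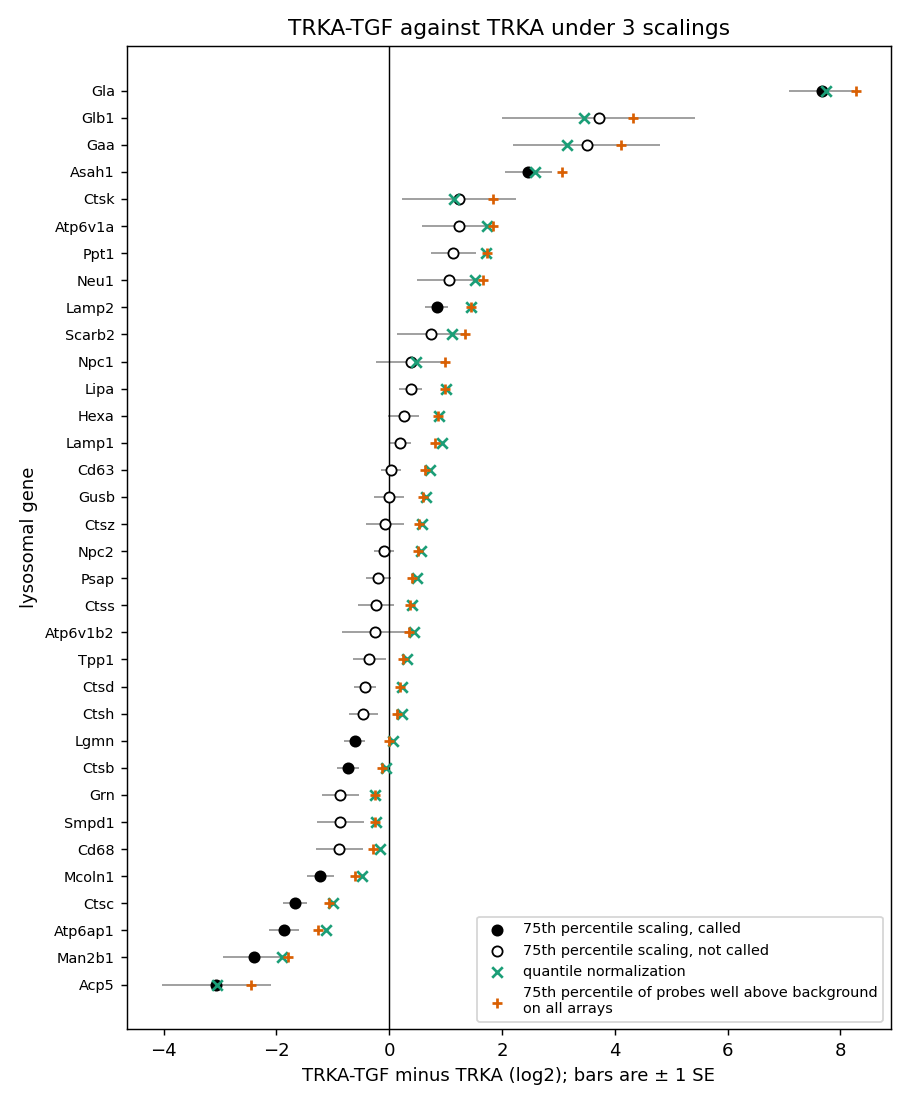
Difference TRKA-TGF minus TRKA (x axis, log2) of each of the 34 lysosomal genes (y axis, in order of the difference). Circles are the reported values with bars of ± 1 SE, filled where called; crosses are quantile normalization and plus signs the 75th percentile of probes well above background on all arrays. Most genes lie further right under both other scalings. Under each scaling shown, Ctsc, Atp6ap1, Man2b1, Acp5, Mcoln1, Grn, Cd68, Smpd1 and Ctsb stay left of 0.

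CD90 and p75 cells differed in 10 lysosomal genes. Ctsk, Ctss, Lgmn and Cd68 were called higher in CD90, and Lipa, Lamp2, Asah1, Atp6ap1, Gla and Hexa lower, 4 and 6 of the 34, against 7.19% of all genes called (3.73% higher and 3.46% lower). The members' median difference was -0.46, against 0.07 for all genes. Cd68 was higher in CD90 by 2.61 ± 0.41 (adjusted p = 0.00095), and Gla had a difference of -2.56 ± 0.58 (adjusted p = 0.0136). The call of Gla was lost when the CD90 and p75 arrays were fitted alone (adjusted p = 0.0786). Ctsk, detected on all 4 CD90 arrays and on 1 of 4 p75 arrays, had a difference of 4.70 ± 1.01 (adjusted p = 0.00972), which was 2.18 with normexp background correction (adjusted p = 0.00408). Ctsk overlapped between the populations through p75 replicate 1 and CD90 replicate 4, and Gla through p75 replicate 1. Lipa fell by 1.80 ± 0.20 (adjusted p = 5.47e-05), and Lamp2 by 1.00 ± 0.20 (adjusted p = 0.00551), both without overlap. The calls of Asah1 (-1.63) and Atp6ap1 (-1.01) were lost without several single arrays: CD90 replicate 1 or 3 or any p75 array for Asah1 (adjusted p = 0.0518 to 0.0853), and CD90 replicate 1, 2 or 4 or any p75 array for Atp6ap1 (adjusted p = 0.0547 to 0.0937). Of the 19 macrophage markers, 9 were called higher and 0 lower in CD90 than in p75 cells, with a median difference of 2.33. Other marker lists moved too: 11 of 11 glial markers were called lower (median -7.76), 5 of 12 fibroblast markers higher (median 3.38) and 4 of 8 smooth muscle markers higher (median 3.51). The part of these lists in the lysosomal differences between CD90 and p75 was not tested.

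For 6 genes more than 1 probe was kept, and these did not always run alike. The Ppt1 probe used above had a TRKA-TGF minus TRKA difference of 1.13 ± 0.40 (adjusted p = 0.0521 over all probes), and its other probe one of -0.63 ± 0.22 (adjusted p = 0.0488). Both Ppt1 probes were higher in TRKA than in p75, by 1.13 ± 0.40 and 3.44 ± 0.22, so the direction against p75 did not depend on the probe while that against TRKA did. The Glb1 probe used above had a TRKA minus p75 difference of -3.40 ± 1.71 (adjusted p = 0.142), and its other probe one of 2.75 ± 0.70 (adjusted p = 0.00727). A dimmer Gusb probe was higher in TRKA-TGF than in TRKA by 3.94 ± 1.36 (adjusted p = 0.0482), where the brightest one had a difference of -0.01 ± 0.27. A dimmer Atp6v1a probe had a TRKA minus p75 difference of -0.11 ± 1.18 (adjusted p = 0.952), where the one used above had 1.78 ± 0.65. Its TRKA-TGF minus p75 difference was 2.50 ± 1.18 (adjusted p = 0.202), where the one used above had 3.01 ± 0.65 (adjusted p = 0.00514). The 2 probes of Grn gave TRKA minus p75 differences of 3.92 ± 0.33 and 4.20 ± 0.37, and those of Npc1 4.57 ± 0.63 and 3.81 ± 0.79.

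**Figure D5:**
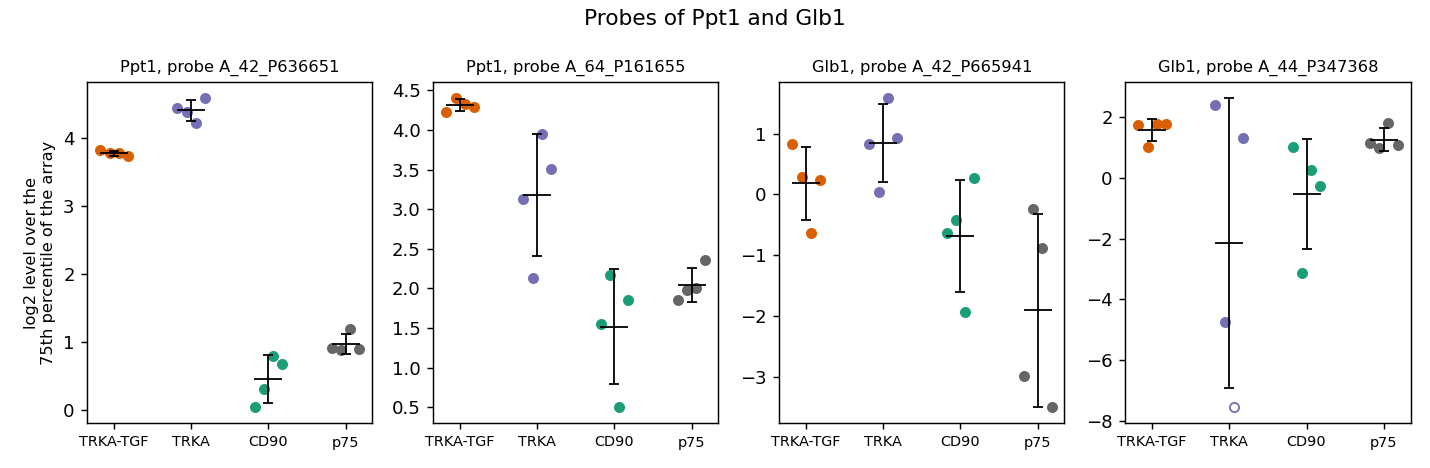
Log2 level over the 75th percentile of the array (y axis) of the 2 kept probes of Ppt1 and of Glb1, by population (x axis). Points are arrays, open where not well above background, and the horizontal mark and bar are the mean ± SD (n = 4); the left Ppt1 probe is lower in TRKA-TGF than in TRKA and the right one higher, and 2 of 4 TRKA arrays are far down for the right Glb1 probe only.

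Other genes of the same organelle were described from 6 lists. How many arrays detected each of these genes is mostly not given below. Large differences from the dim TRKA arrays may be smaller under another scaling, as that of Gla was. Of 29 further hydrolases tested, 17 were called higher and 0 lower in TRKA-TGF than in CD90, and 15 higher and 3 lower in TRKA than in p75, against 7.87% and 7.04%, and 16.9% and 17.9% of all genes. Their median differences were 2.18 and 1.38, against 0.17 and -0.12 for all genes. Lyz2, lysozyme, was higher in TRKA than in p75 by 5.15 ± 0.22 (adjusted p = 1.08e-09) and in TRKA-TGF than in CD90 by 3.97 ± 0.22 (adjusted p = 4.19e-08). Pla2g15, a lysosomal phospholipase, was higher in TRKA than in p75 by 4.34 ± 0.57 (adjusted p = 5.08e-05), and Rnaset2, a ribonuclease, by 3.98 ± 0.37 (adjusted p = 1.86e-06). In TRKA-TGF against TRKA 4 of the 29 were called higher and 6 lower, against 15% and 10.9% of all genes. The split was 5 and 2 with quantile normalization, where 32.3% of all genes were called, 39.2% of the calls higher. Arsa, arylsulfatase A, was higher by 2.38 ± 0.49 (adjusted p = 0.00294) and Gm2a, the GM2 ganglioside activator, by 2.34 ± 0.24 (adjusted p = 1.49e-05), both under every scaling.

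Of 16 further V-ATPase subunits, 10 were called higher and 0 lower in TRKA-TGF than in CD90, 7 higher and 1 lower in TRKA than in p75, and 4 higher and 1 lower in TRKA-TGF than in TRKA. Beside these stand 7.87% higher and 7.04% lower, 16.9% and 17.9%, and 15% and 10.9% of all genes. Atp6v0d2, a subunit of the membrane part known from osteoclasts and macrophages, was higher in TRKA than in p75 by 8.29 ± 0.79 (adjusted p = 2.75e-06) and in TRKA-TGF than in CD90 by 5.76 ± 0.79 (adjusted p = 0.000166). Atp6ap2, the second accessory subunit and also known as the prorenin receptor, was the 1 subunit of the 16 called lower in TRKA than in p75, where 8 were not called: it was lower, with a difference of -4.87 ± 1.04 (adjusted p = 0.00241), and higher in TRKA-TGF than in TRKA by 6.89 ± 1.04 (adjusted p = 0.000325). Atp6ap1 and Atp6ap2 were thus called in opposite directions in TRKA-TGF against TRKA, under every scaling. Tcirg1, a membrane subunit needed by osteoclasts, was higher in TRKA-TGF than in CD90 by 3.52 ± 0.74 (adjusted p = 0.00468).

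Of 25 further lysosomal membrane proteins and transporters, 8 were called higher and 1 lower in TRKA-TGF than in TRKA, 10 and 0 in TRKA-TGF than in CD90, and 8 and 3 in TRKA than in p75, against 15% and 10.9%, 7.87% and 7.04%, and 16.9% and 17.9% of all genes called higher and lower. Slc11a1, the metal transporter NRAMP1 of phagocytes, was higher in TRKA-TGF than in TRKA by 6.75 ± 1.39 (adjusted p = 0.0029) and than in CD90 by 7.97 ± 1.39 (adjusted p = 0.00117), and at least 2105-fold higher than in p75 cells, where it was not well above background (adjusted p = 7.09e-05). Laptm5, also among the macrophage markers, was higher in TRKA than in p75 by 6.21 ± 0.55 (adjusted p = 1.29e-06). Of 22 genes for sorting of lysosomal proteins, 7 were called higher and 2 lower in TRKA-TGF than in TRKA, 2 and 0 in TRKA-TGF than in CD90, and 3 and 2 in TRKA than in p75. All genes gave 15% and 10.9%, 7.87% and 7.04%, and 16.9% and 17.9% in these comparisons, so the counts against CD90 and p75 were near or below the share of all genes. Gga3, an adaptor that sorts mannose 6-phosphate receptors, was higher in TRKA-TGF than in TRKA by 7.29 ± 1.27 (adjusted p = 0.000889), Vps41, of the HOPS tethering complex, by 5.84 ± 0.72 (adjusted p = 6.11e-05), and Igf2r, the large mannose 6-phosphate receptor, by 5.55 ± 1.50 (adjusted p = 0.0146). The 3 genes were lower in TRKA than in CD90, with differences of -4.34, -5.86 and -6.50, although for Gga3 the call did not hold under every scaling.

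Of the transcription factors, Tfec was higher in TRKA than in p75 by 6.44 ± 1.70 (adjusted p = 0.00933), in TRKA than in CD90 by 5.87 ± 1.70 (adjusted p = 0.016), in TRKA-TGF than in CD90 by 7.77 ± 1.70 (adjusted p = 0.00613) and in TRKA-TGF than in p75 by 8.34 ± 1.70 (adjusted p = 0.00346). Its TRKA arrays overlapped with both CD90 and p75. Mitf was higher in TRKA than in p75 by 2.42 ± 0.32 (adjusted p = 5.76e-05) and than in CD90 by 1.67 ± 0.32 (adjusted p = 0.00113), and in TRKA-TGF than in p75 by 1.43 ± 0.32 (adjusted p = 0.00694). In TRKA-TGF against TRKA the Mitf difference was -0.99 ± 0.32 (adjusted p = 0.0372), a call that held in 1 of 5 other settings, with a highest adjusted p of 0.353. Tfeb and Tfe3 were not called in any comparison. Of the 16 genes of this list tested, which adds the Ragulator and Rag proteins that tether mTOR to the lysosome, 4 were called higher and 3 lower in TRKA-TGF than in TRKA. Beside these stand 15% higher and 10.9% lower of all genes. Rragd, Rraga and Lamtor3 were higher by 7.13 ± 1.51, 6.22 ± 1.10 and 5.23 ± 0.99 (adjusted p = 0.00348, 0.000996 and 0.00155), and Mtor by 3.87 ± 1.32 (adjusted p = 0.045). Lamtor2 fell by 1.33 ± 0.27 (adjusted p = 0.00266) and Lamtor4 by 0.96 ± 0.31 (adjusted p = 0.0349). Mtor, Lamtor2 and Lamtor4 were not called under every scaling. Rraga, Lamtor3 and Mtor were lower in TRKA than in p75, with differences of -6.90, -3.01 and -4.47, and than in CD90, with differences of -6.45, -3.02 and -4.43. Lamtor4 and Lamtor2 were higher in TRKA than in p75, by 2.66 and 1.46, and than in CD90, by 2.26 and 2.81. Rragd was at least 461-fold higher in TRKA-TGF than in CD90 (adjusted p = 0.000693) and higher than in p75 by 6.34. Fnip2, a folliculin partner, was higher in TRKA-TGF than in CD90 and p75, by 1.84 and 2.72, and in TRKA than in p75 by 1.42. Lamtor4 was higher in TRKA-TGF than in CD90 and p75, by 1.30 and 1.70, Lamtor2 was higher in TRKA-TGF than in CD90 by 1.48 and lower in CD90 than in p75, with a difference of -1.35.

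Of 6 inhibitors of lysosomal and leukocyte proteases tested, Slpi, the secretory leukocyte protease inhibitor, fell by 7.87 ± 0.36 in TRKA-TGF against TRKA cells (adjusted p = 5.67e-09) and Serpinb1a, an inhibitor of neutrophil proteases, by 2.17 ± 0.33 (adjusted p = 0.000339). Cstb, cystatin B, an inhibitor of cathepsins inside cells, was higher by 1.79 ± 0.40 (adjusted p = 0.00507). Cst3, the secreted cystatin C, was higher in TRKA than in p75 by 4.18 ± 0.58 (adjusted p = 8.56e-05) and in TRKA-TGF than in CD90 by 2.87 ± 0.58 (adjusted p = 0.00362). The secreted inhibitor Slpi was also lower in TRKA-TGF than in CD90, with a difference of -6.22 ± 0.36 (adjusted p = 5.71e-08).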

How the data were processed

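Spot intensities came from 16 one-colour Agilent arrays, background-subtracted by the scanner software before they were deposited, per the file headers (Feature Extraction 10.7.3.1; the submitters' processing notes name 10.5). A table of log2 values deposited by the authors tracked quantile-normalized signals centred per probe; how it was scaled and centred was not stated in the labels or headers, and it served only as an alternative (column medians -0.03 to 0.19). Control spots and outlier spots were dropped, leaving 30367 probes, of which 18355 were named by accession and 3180 by symbol through RefSeq. Signals were divided by each array's 75th percentile and put on a log2 scale. Probes detected above background on at least 4 arrays were kept, and the brightest stood for its gene. The test was limma (version 3.58.1, R 4.3.3) with 1 mean per population, empirical Bayes and Benjamini-Hochberg adjustment over 20571 genes. It assumes an equal spread in all populations, which these arrays did not show. More calls may therefore be false than the adjusted p threshold states. The number of arrays limits precision.

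Genes were described in full where they had the highest or lowest called difference of their role class in TRKA-TGF minus TRKA, TRKA minus p75 or TRKA-TGF minus CD90, or were called in opposite directions in 2 comparisons. The other lists gave at most 3 genes per comparison, and all called nutrient-sensing genes. The members and all lists were chosen with earlier results of these data known. Alternatives were normexp background correction, quantile normalization, a percentile over 10600 probes detected on all arrays, no filter, the deposited log2 values, the mean over probes, only the 2 populations compared, a variance trend, a replicate block, leaving out each array, and variance weights per population, which were chosen after seeing the data. Replicate numbers did not pair samples: over 24 pairs of arrays with the same number, deviations from the population means correlated between -0.03 and 0.04. The sort gene of the TRKA populations is not reported here.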

Additional observations from a re-analysis of the deposited data

Results flagged for a closer look

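Of 136 sets of 4 arrays, 1 for each lysosomal gene in each population, 10 held an array far from the other 3, with a gap to its nearest neighbour, as a share of the whole range, above Dixon's critical value; chance gives about 1 in 20 such sets. The share of the range is given for each.

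In TRKA-TGF cells, Glb1 was low in replicate 2 (1.03 against 1.74 to 1.76; share 0.962), Npc1 was low in replicate 3 (-0.15 against 0.81 to 0.95; share 0.873) and Npc2 was low in replicate 2 (4.79 against 4.85 to 4.87; share 0.835). In TRKA cells, Hexa was high in replicate 3 (4.88 against 3.75 to 3.80; share 0.957) and Atp6v1a was low in replicate 1 (-0.54 against 2.23 to 2.75; share 0.841). In CD90 cells, Ctsd was high in replicate 1 (3.61 against 3.16 to 3.20; share 0.911) and Gusb was low in replicate 4 (2.67 against 3.08 to 3.14; share 0.876). In p75 cells, replicate 1 was high for Ctsk (-4.48 against -8.46 to -8.15; share 0.923) and for Atp6ap1 (1.89 against 1.54 to 1.59; share 0.850), and replicate 4 was high for Asah1 (1.41 against 0.73 to 0.82; share 0.869).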

How the results depend on the processing

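Of 127 calls of a lysosomal gene in a comparison, 96 held in all 26 other settings, 105 in all 4 other scalings and 113 with each array left out. The differences that changed sign were Lgmn in TRKA-TGF minus TRKA (0.068 with quantile normalization, 0.051 in the deposited log2 values), Cd63 in TRKA minus p75 (-0.17 with quantile normalization, -0.043 with the percentile over probes detected on all arrays, -0.19 in the deposited values), Lamp1 in TRKA minus CD90 (-0.24, -0.15 and -0.24 under the same 3) and Gusb with the mean over its probes (-0.69 in TRKA minus p75, -0.084 in TRKA minus CD90); the cause was not tested. Leaving out 1 array at a time gave 8 to 12 calls in TRKA-TGF minus TRKA, 22 to 26 in TRKA minus p75, 27 to 31 in TRKA-TGF minus CD90, 27 to 31 in TRKA minus CD90, 22 to 25 in TRKA-TGF minus p75 and 8 to 12 in CD90 minus p75. With the replicate block the calls in these comparisons were 8, 23, 29, 29, 23 and 9, against 10, 24, 29, 29, 25 and 10 without it; the numbers showed no pairing.

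Counts of the companion lists moved by more than 1.5 times in some settings. Sorting genes gave 5 calls in TRKA-TGF minus TRKA (1 setting), 8 to 9 in TRKA minus p75, 0 to 7 in TRKA-TGF minus CD90, 1 to 9 in TRKA-TGF minus p75 and 1 to 2 in CD90 minus p75. V-ATPase subunits gave 3 to 8 calls in TRKA-TGF minus TRKA, against 4 higher and 1 lower as reported. They gave 14 in TRKA-TGF minus p75 (9 higher and 0 lower as reported) and 0 in CD90 minus p75 (1 and 0). Membrane proteins gave 13 in TRKA-TGF minus p75 (7 and 0). Nutrient-sensing genes gave 4 calls in TRKA-TGF minus TRKA, against 4 higher and 3 lower as reported. They gave 5 in TRKA minus p75 (5 higher and 3 lower as reported) and 4 in TRKA minus CD90 (4 and 3). In TRKA-TGF minus p75 they gave 8 to 11 (5 and 0), and in CD90 minus p75 0 (0 and 1). Protease inhibitors gave 2 to 3 in TRKA minus p75 (1 and 0), 2 in TRKA minus CD90 (4 and 0) and 2 in CD90 minus p75 (0 and 1). Signal over background limits the TRKA arrays most. The median SD of the lysosomal genes was 0.13 in TRKA-TGF, 0.25 in TRKA, 0.35 in CD90 and 0.36 in p75, while the test assumes 1 spread. With variance weights per population, chosen after seeing the data, 7 lysosomal genes were called in TRKA-TGF minus TRKA (3 higher and 4 lower), against 10. The share of all genes called there was 18.8% with weights, against 25.9%. In TRKA minus p75 it was 26.8% against 34.8%, and in TRKA-TGF minus CD90 22.6% against 14.9%. The lysosomal genes called in these latter comparisons were 22 and 31 with weights, against 24 and 29.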
